A study of Mus musculus with 8 samples.

Results

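Schwann cells are the glia of peripheral nerve, and a calf muscle carries them along the intramuscular branches of its nerve. Their transcripts were followed here through 8 genes taken by symbol from a table of 38741 gene symbols: Mbp, Pmp22, Ncmap, Mag, Prx, Sox10, S100b and Cnp. Each symbol had 1 row in the table, so all 8 were found. The values are FPKM, fragments counted over the exons of a gene, adjusted for exon length and library size, which are levels per length and can be compared between genes.

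The samples were gastrocnemius muscles of 8 male mice on a C57BL6 background. Of these, 4 were homozygous for the targeted allele Bcat2tm1.2Clyn, were 10 to 11 weeks old and weighed 15 to 24 g. The other 4 were wild type, 9 to 10 weeks old, and weighed 22 to 25 g. All mice, and their dams, could choose between a standard chow and a purified diet without branched-chain amino acids. Bcat2 encodes BCATm, the mitochondrial aminotransferase that starts the breakdown of leucine, isoleucine and valine. The labels name no promoter or cell type that would restrict the deletion. Knockout columns are numbered KO5 to KO8 and match no single labelled knockout, so weight and age were not tied to a knockout column. The labels do not say whether mice shared a litter.

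In myelinated nerve, a Schwann cell wraps its membrane around one axon and compacts the layers into myelin. Membrane proteins and the basic protein Mbp hold the compact layers together, and other proteins sit in the channels of cytoplasm and next to the axon. Sox10 is the transcription factor that specifies these cells, and together with Egr2 it drives the myelin genes. The cell bodies of the axons lie in the spinal cord and ganglia, outside the muscle.

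The labels and the cell type were checked first. Bcat2 read 2.89, 5.26, 2.91 and 2.09 FPKM in KO5 to KO8, against 83.0, 42.7, 46.0 and 41.2 FPKM in WT1 to WT4 (adjusted p = 0.00245 by limma). Among 8 markers of oligodendrocytes, the myelinating glia of the central nervous system, Mobp and Opalin were listed at 0 in every mouse. Mog stayed at or under 0.132 FPKM, and Nkx6-2 was listed at 3.13 FPKM in KO8 and at 0 elsewhere. Muscle itself was plain, with creatine kinase Ckm at 10060 to 13970 FPKM in knockouts and 10380 to 13690 FPKM in wild type. Relative depth, estimated from transcripts of very low level, ran from 0.547 to 1.21 in knockouts and from 0.435 to 1.22 in wild type, with WT2 set to 1. The files give no read totals, so precision rests on the spread between mice.

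Some libraries stood apart from the rest. Summed adipocyte markers, 9 genes, reached 8350 FPKM in KO6 and 1334 to 2039 FPKM in the other knockouts, against 15850 FPKM in WT1 and 624.5 to 744 FPKM in the other wild-type mice. Summed keratinocyte markers, 10 genes, reached 756 FPKM in KO6 and 5.80 to 10.1 FPKM in the other knockouts, against 4.55 to 5.81 FPKM in wild type. The median gene of KO8 lay 0.35 log2 units below its mean over the 8 mice, while that of the other 7 mice lay between -0.07 and 0.16. Over all 11118 genes tested, the median difference of knockout minus wild type was -0.12 on the log2 scale. Scaling by median ratios brought it to -0.002.

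All 8 Schwann cell and myelin genes had a higher mean of log2(FPKM + 1) in knockouts than in wild type. Of the 21847 genes with any FPKM above 0, 43.4% did. The 8 were chosen with earlier results of these data known, and several rise and fall in the same mice. Counts of them beside shares of all genes are therefore descriptions, not tests. In bulk muscle, more Schwann cells and more RNA per Schwann cell cannot be told apart. At least 2 knockouts read above the highest wild-type mouse for every one of the 8, as for 18.6% of genes with a mean of at least 1 FPKM, and at least 3 did for 4 of the 6 genes with such a mean, against 5.89%. KO5 held the highest value of these 6, as of 11.3% of genes, and KO7 that of Mag and Sox10. Ncmap was the 1 gene of the 8 whose groups did not overlap, and groups apart with lower knockouts, seen in 4.68% of tested genes, occurred in 0 of the 8. None of the 8 passed the test over all genes, limma on log2(FPKM + 1) with Benjamini-Hochberg adjustment. Of 11118 genes with a mean of at least 1 FPKM, 0.027% passed it, and of all 21847, 0.0183% did. Tested this way were 6 of the 8, since Mag and Sox10 averaged under 1 FPKM. Ncmap had a wild-type mean under 1 FPKM and met the minimum through its knockout values. Mbp and Ncmap reached an unadjusted p under 0.05 with higher knockout values, as did 2.99% of all genes tested. With lower knockout values 0 of the 6 did, against 7.33%. Leaving out both WT1 and KO6, which had the most fat transcripts, neither gene reached it with 3 mice per group, and the differences were 0.68 for Mbp and 0.86 for Ncmap, against 0.78 and 0.92 with all mice (adjusted p = 0.467 for Mbp and 0.445 for Ncmap by limma).

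**Figure D1:**
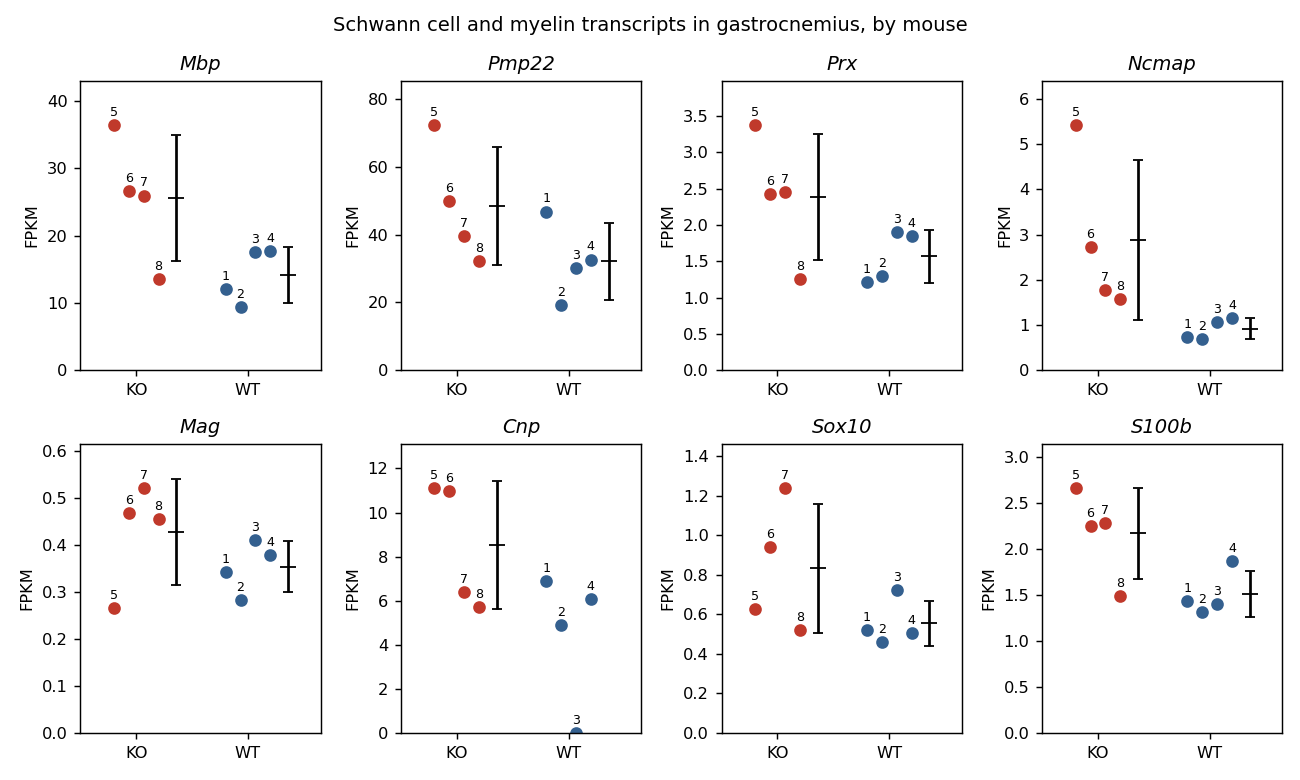
FPKM of the 8 genes in each mouse, knockouts (KO, red, mice 5 to 8) and wild type (WT, blue, mice 1 to 4), with 1 point per mouse and the mean ± SD of each group in black. KO5 is the highest mouse for Mbp, Pmp22, Prx, Ncmap, Cnp and S100b and the lowest for Mag. No mean is drawn for Cnp in wild type, where WT3 is listed at 0.

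Among proteins of compact myelin, Mbp (ENSMUSG00000041607, chromosome 18) encodes the basic protein that binds the inner faces of the membrane. It read 36.4, 26.6, 26.0 and 13.6 FPKM in KO5 to KO8, against 12.1, 9.38, 17.5 and 17.7 FPKM in WT1 to WT4. KO5, KO6 and KO7 lay above every wild-type mouse, and KO8 lay inside the wild-type range. The means were 25.7 ± 9.36 FPKM in knockouts and 14.2 ± 4.12 FPKM in wild type (SD, n = 4 each), a ratio of 1.81. The difference was 0.78 on the log2(FPKM + 1) scale (SE 0.31, 95% interval 0.07 to 1.49, adjusted p = 0.48 by limma). An exact permutation test over the mice gave p = 0.0857 (2-sided), where the smallest p that 4 against 4 mice allow is 0.0286.

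Pmp22 (ENSMUSG00000018217, mm10 chr11:63128982-63159547) encodes a membrane protein that crosses the compact layers. Fibroblasts and other cells transcribe it too, and the FPKM of a gene does not separate its starts. It was the most abundant of the 8, above Mbp in 8 of 8 mice. Knockouts read 72.4, 50.0, 39.5 and 32.3 FPKM, and wild-type mice read 46.8, 19.2, 30.2 and 32.7 FPKM. Only KO5 and KO6 lay above WT1, the highest wild-type mouse, which also had the most fat transcripts. The difference was 0.58 (SE 0.31, 95% interval -0.14 to 1.29, adjusted p = 0.49 by limma), and the exact permutation p was 0.171. It was 0.36 without WT2 and 0.37 without KO5.

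Ncmap (ENSMUSG00000043924, chr4:135369576-135398227) encodes a small membrane protein of non-compact peripheral myelin. It read 5.42, 2.73, 1.77 and 1.57 FPKM in KO5 to KO8, against 0.744, 0.693, 1.07 and 1.16 FPKM in WT1 to WT4. The lowest knockout thus lay above the highest wild-type mouse, a pattern shared by 2.08% of all genes tested. Its mean was 2.87 ± 1.77 FPKM in knockouts and 0.917 ± 0.234 FPKM in wild type (SD, n = 4 each), a ratio of 3.13. That ratio was the widest of the 8. The difference was 0.92 (SE 0.30, 95% interval 0.24 to 1.60, adjusted p = 0.48 by limma), and the exact permutation p was 0.0286, the smallest possible. Leaving out KO5 gave 0.65, the lowest value with 1 mouse left out, and leaving out KO8 gave 1.09, the highest. Without WT1, KO5 and KO6 together it was 0.44, while the difference of Mbp was then 0.37.

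Prx (ENSMUSG00000053198, chr7:27499324-27520214) encodes periaxin, which ties the outer Schwann cell membrane to the basal lamina through the dystroglycan complex. It read 3.38, 2.43, 2.46 and 1.26 FPKM in knockouts and 1.21, 1.30, 1.91 and 1.85 FPKM in wild type. As with Mbp, KO5 to KO7 exceeded every wild-type mouse and KO8 did not. Its difference was 0.37 (SE 0.23, 95% interval -0.15 to 0.89, adjusted p = 0.52 by limma, exact permutation p = 0.171), and 0.23 without KO5 or 0.55 without KO8. It was 0.07 without WT1, KO5 and KO6. An antisense gene, Gm15541, covers 300 exonic bases of Prx, and the library kit does not mark strand, so part of the Prx signal could be its reads. Gm15541 averaged 2.09 FPKM in knockouts and 1.17 FPKM in wild type.

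Mag (ENSMUSG00000036634, chr7:30899183-30914327) encodes the glycoprotein of the membrane that faces the axon. It was the least abundant of the 8, below Sox10 in 8 of 8 mice, at 0.265, 0.469, 0.521 and 0.455 FPKM in knockouts and 0.342, 0.283, 0.411 and 0.379 FPKM in wild type. KO5, the highest mouse for 6 of the other genes, was the lowest for Mag, and the groups overlapped. KO5 also had the lowest relative depth among knockouts, 0.547, and its part in this low value was not tested. The difference was 0.07 (SE 0.08, 95% interval -0.11 to 0.26, adjusted p = 0.73 by limma with no minimum on FPKM). It was 0.13 without KO5, 0.05 without WT2 and 0.04 without KO7.

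Cnp (ENSMUSG00000006782, chr11:100574904-100591729) encodes the cyclic nucleotide phosphodiesterase of cytoplasmic channels in myelin, and it is transcribed at lower levels in many cell types. Knockouts read 11.1, 11.0, 6.38 and 5.71 FPKM, and wild-type mice read 6.89, 4.87, 0 and 6.07 FPKM. KO5 and KO6 stood above the wild-type mice, while KO7 and KO8 lay among them. An exact 0 in a table of FPKM can be a failed estimate, so WT3 is only listed at 0, and the difference of 1.11 (SE 0.62, adjusted p = 0.50 by limma) rests on it. It was 0.42 without WT3 or with zeros as missing. Cnp overlaps Dnajc7, a co-chaperone gene on the opposite strand, with 154 exonic bases in common. Dnajc7 read 50.0, 50.2, 53.2 and 37.1 FPKM in knockouts and 100.5, 83.8, 98.6 and 68.6 FPKM in wild type (adjusted p = 0.48 by limma), far above Cnp in every mouse. Reads of the shared bases cannot be told apart without strand, so the Cnp values are uncertain.

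Of the 2 general Schwann cell genes, Sox10 (ENSMUSG00000033006, chr15:79154913-79164490) read 0.629, 0.942, 1.24 and 0.520 FPKM in knockouts and 0.523, 0.462, 0.724 and 0.507 FPKM in wild type. KO6 and KO7 were above every wild-type mouse, and KO5, where most of the genes peaked, was not. The difference was 0.22 (SE 0.15, 95% interval -0.12 to 0.57, adjusted p = 0.72 by limma with no minimum on FPKM), and 0.12 without KO7. Melanocytes of skin also need Sox10, and KO6 carried skin keratins. Of 8 melanocyte markers, Pmel and Oca2 were listed at 0 in every mouse. Dct, another of them, was highest in KO6 at 0.650 FPKM, against at most 0.169 FPKM in other knockouts and 0.334 FPKM in wild type. The melanocyte list summed to 4.22 FPKM in KO6 and 2.23 to 3.75 FPKM in the other knockouts, against 2.38 to 3.11 FPKM in wild type, mostly Mitf. What melanocytes add to Sox10 was not tested.

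S100b (ENSMUSG00000033208, chr10:76253853-76261159) encodes a calcium-binding protein used as a Schwann cell marker, and adipocytes make it as well. It read 2.66, 2.25, 2.28 and 1.48 FPKM in KO5 to KO8, against 1.44, 1.31, 1.40 and 1.87 FPKM in WT1 to WT4. KO8 lay among the wild-type mice, and the other 3 knockouts lay above them all. WT1, with the most fat transcripts, read 1.44 FPKM, and what adipocytes add to S100b was not tested. The difference was 0.33 (SE 0.18, 95% interval -0.08 to 0.74, adjusted p = 0.49 by limma), and the exact permutation p was 0.0571. It was 0.18 without WT1, KO5 and KO6.

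In order of mean level over the 8 mice, the genes ran Pmp22, Mbp, Cnp, Prx, Ncmap, S100b, Sox10 and Mag. Prx, Ncmap and S100b averaged 1.98, 1.90 and 1.84 FPKM and changed places between mice, with Prx above Ncmap in 5 of 8 and Ncmap above S100b in 3 of 8. The other steps held in 8 of 8 mice, apart from Cnp over Prx in 7 of 8. Among the wild-type mice the highest value was 2.44 times the lowest for Pmp22 and 1.42 times for S100b. Among the knockouts the highest value was 3.44 times the lowest for Ncmap, against 1.68 in wild type. It was 2.68 against 1.89 for Mbp, 2.67 against 1.58 for Prx and 2.24 against 2.44 for Pmp22. KO8, the mouse with a low median gene, was the lowest knockout for each of these genes, and its part in the spread was not tested. WT2 was the lowest mouse for 5 of the 8 and among the lower 4 mice for all 8. The median gene of WT2 lay at -0.07 log2 units from its mean over the 8 mice. Shares of all genes with such spreads or such ranks of WT2 are not given here.

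Because the median gene of KO8 was low, the comparison was repeated after median-ratio scaling. Scaled Mbp read 36.5, 23.4, 27.1 and 18.4 in KO5 to KO8, against 10.95, 9.87, 14.9 and 17.9 in WT1 to WT4, so the groups no longer overlapped. The groups also parted for Sox10, S100b and Cnp, in addition to Ncmap. The margin was narrow for Mbp, and for Sox10, which averaged under 1 FPKM, it was 0.630 in KO5 against 0.617 in WT3. Of the 6 genes tested, 4 then had groups apart with knockouts higher, against 3.64% of all genes. Among these 4, Ncmap met the minimum on FPKM through its knockout values, and the Cnp values are uncertain, as given above. Both genes also enter the counts and medians that follow. An unadjusted p under 0.05 with higher knockouts came out for all of the 6 but Cnp, against 6.75% of all genes. All 6 had a higher knockout mean, against 49.7%. None of them passed after adjustment (limma adjusted p from 0.412 to 0.433), as 0.036% of all genes did. Median differences of the 6 were 0.68 as deposited and 0.82 after scaling, beside -0.12 and -0.002 for all genes tested.

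**Figure D2:**
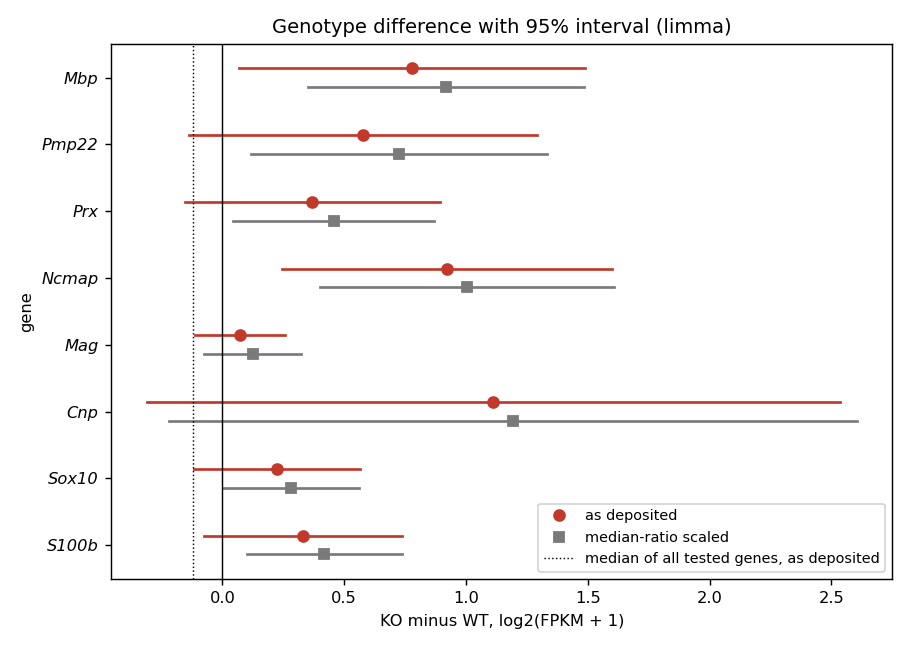
Knockout minus wild type on the log2(FPKM + 1) scale for the 8 genes, with limma 95% intervals, from the deposited values (red circles) and after median-ratio scaling (grey squares). All 8 estimates lie right of 0 under both, from 0.07 for Mag to 1.11 for Cnp as deposited, and the dotted line marks the median of all tested genes at -0.12.

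The promoters of Ncmap, Prx and Pmp22 are shown because Ncmap had the widest ratio of knockout to wild type, Prx shared a motif match with it, and Pmp22 had the highest level. Each is the 250 bases before the RefSeq start site that matches the deposited gene start (GRCm38.p6, the mm10 assembly), written 5′ to 3′ on the strand of the gene. RefSeq lists 4 starts for Pmp22 and 2 for Ncmap. Capitals mark matches, on either strand, to GTGGGNG, a core of the EGR site, or to ACAAAG and AACAAT, forms of the SOX site.
Ncmap (chr4:135398228-135398477, minus strand): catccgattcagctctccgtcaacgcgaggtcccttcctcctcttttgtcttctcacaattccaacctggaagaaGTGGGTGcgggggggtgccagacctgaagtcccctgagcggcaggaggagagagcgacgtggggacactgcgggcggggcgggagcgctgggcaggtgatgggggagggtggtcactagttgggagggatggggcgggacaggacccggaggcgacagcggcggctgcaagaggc
Prx (chr7:27499074-27499323, plus strand): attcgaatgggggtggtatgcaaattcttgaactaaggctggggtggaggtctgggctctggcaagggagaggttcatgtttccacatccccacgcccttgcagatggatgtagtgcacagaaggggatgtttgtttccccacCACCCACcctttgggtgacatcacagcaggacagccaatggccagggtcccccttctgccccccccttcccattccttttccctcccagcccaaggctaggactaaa
Pmp22 (chr11:63128732-63128981, plus strand): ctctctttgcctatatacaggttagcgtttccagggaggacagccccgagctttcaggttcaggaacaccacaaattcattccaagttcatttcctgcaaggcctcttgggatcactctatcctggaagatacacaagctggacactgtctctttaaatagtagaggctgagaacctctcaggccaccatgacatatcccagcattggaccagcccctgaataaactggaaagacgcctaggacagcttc
Ncmap had 1 EGR match, GTGGGTG, at position -175 from the start, and Prx had 1 on the other strand, CACCCAC, at -107. Pmp22 had no match in this window, and neither did Mag or S100b, while Cnp had ACAAAG on its own strand at -167. Of 32851 RefSeq promoters cut in the same way, 28.1% hold GTGGGNG and 24.0% hold a SOX form, so matches of this kind are common.

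Of 12 other proteins of myelin and the paranode, 10 had a higher mean in knockouts with no minimum on FPKM, against 43.4% of all genes. Unadjusted p under 0.05 was reached by 2 of the 12 with higher knockout values and by 0 with lower ones, against 2.14% of all genes for higher values. Of genes with a mean of at least 1 FPKM, 7.33% reached it with lower values. None passed after adjustment. The 2 were Mal and Pllp, both membrane proteins that travel with myelin lipids. Mal read 4.72, 2.90, 2.49 and 2.24 FPKM in knockouts and 1.71, 1.23, 1.27 and 2.04 FPKM in wild type (adjusted p = 0.48 by limma, exact permutation p = 0.0286). Pllp read 3.45, 2.73, 2.21 and 1.81 FPKM in knockouts and 1.80, 0.932, 0.889 and 1.21 FPKM in wild type (adjusted p = 0.48 by limma, exact permutation p = 0.0286). In both, knockouts lay above all wild-type mice, as in 2.08% of all genes tested, in Pllp by a narrow margin over WT1. Cadm4, an adhesion protein that faces the axon, was picked with its values in view. It averaged 2.80 ± 1.02 FPKM in knockouts and 1.76 ± 0.559 FPKM in wild type (SD, n = 4 each, adjusted p = 0.49 by limma). Gjc3 and Cmtm5 had lower knockout means. Gjc3 averaged 0.429 FPKM in knockouts and 0.615 FPKM in wild type (exact permutation p = 0.0571), and Cmtm5 averaged 0.487 and 0.591 FPKM (exact permutation p = 0.4).

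**Figure D3:**
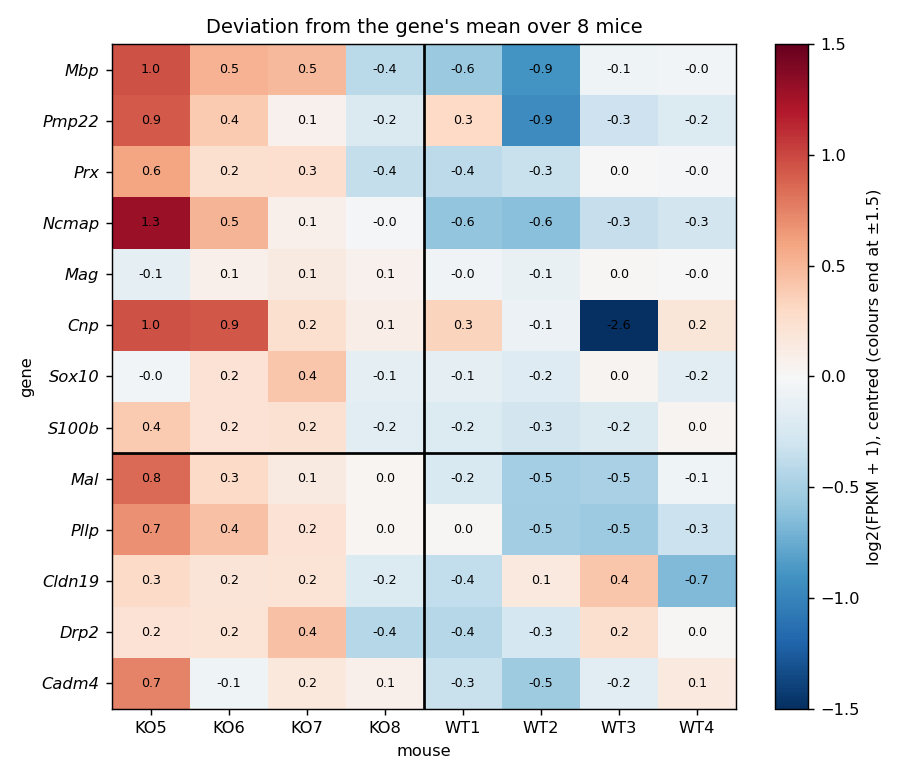
Log2(FPKM + 1) of each gene minus its own mean over the 8 mice, knockouts on the left and wild type on the right, for the 8 genes (above the line) and the 5 other myelin and paranode genes with a mean of at least 1 FPKM (below it). The column of KO5 is above 0 in all rows but Mag and Sox10, and the column of WT2 is below 0 in all rows but Cldn19.

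Of 8 Schwann cell transcription factors, 1, the Egr corepressor Nab1, averaged at least 1 FPKM, at 2.77 ± 0.468 FPKM in knockouts and 3.33 ± 1.03 FPKM in wild type (SD, n = 4 each, adjusted p = 0.68 by limma). With no minimum, 5 of the 8 had a higher knockout mean, against 43.4% of all genes, and 0 reached an unadjusted p under 0.05. Egr2, picked with its values in view, read 0.407, 1.71, 0.202 and 0.2997 FPKM in knockouts and 1.05, 0.315, 0.719 and 0.758 FPKM in wild type. Its highest value came from KO6, the mouse with skin keratins, as did those of Tfap2a and Pou3f1. Of 10 signals and receptors, 8 had a higher knockout mean, against the same 43.4% of all genes. An unadjusted p under 0.05 was reached by Ngfr with higher knockout values, against 2.14% of all genes, and by Adam22 with lower ones. Both were under 0.5 FPKM in every mouse. Itga6, a laminin receptor chain, averaged 14.4 ± 5.40 FPKM in knockouts and 12.0 ± 6.01 FPKM in wild type (SD, n = 4 each, adjusted p = 0.74 by limma). The neuregulin receptor Erbb3, picked with its values in view, read 2.13 FPKM in KO6 and 0.392 to 0.496 FPKM in the other knockouts, against 0.512 to 0.798 FPKM in wild type.

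Enzymes of myelin lipids, 5 in all, had a higher knockout mean in 3, against 43.4% of all genes with no minimum on FPKM. Ugt8a, which makes the galactolipids of myelin and was picked with its values in view, read 1.85, 0.694, 1.06 and 0.781 FPKM in knockouts and 0.514, 0.396, 0.308 and 0.618 FPKM in wild type. The groups did not overlap for Ugt8a (exact permutation p = 0.0286, adjusted p = 0.70 by limma with no minimum on FPKM). Of genes with a mean of at least 1 FPKM, which Ugt8a did not reach, 2.08% had groups apart with higher knockouts. Fa2h, the fatty acid hydroxylase of the same pathway, is also active in skin and read 13.98 FPKM in KO6, against 0.681 to 0.843 FPKM in the other knockouts and 0.404 to 0.675 FPKM in wild type. Gal3st1 was likewise highest in KO6, at 2.40 FPKM, against 0.152 to 0.381 FPKM in the other knockouts and 0.140 to 0.311 FPKM in wild type. The more abundant Cers2 and Aspa had lower knockout means. Cers2 averaged 10.1 FPKM in knockouts and 12.6 FPKM in wild type, and Aspa averaged 14.4 and 15.2 FPKM.

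Markers of the other cells of a nerve covered a wide range of levels. Non-myelinating Schwann cell markers numbered 5, of which L1cam was listed at 0 in every mouse. Of the other 4, 2 had a higher knockout mean, against 43.4% of all genes with no minimum on FPKM. The sodium channel Scn7a averaged 3.09 ± 1.17 FPKM in knockouts and 2.61 ± 2.40 FPKM in wild type (SD, n = 4 each, adjusted p = 0.70 by limma). WT1 read 6.20 FPKM and the other wild-type mice 1.23 to 1.59 FPKM, below all 4 knockouts. The Scn7a difference was 0.32 with all mice and 0.72 without WT1 (adjusted p = 0.41 by limma). Of 15 axon and motor neuron markers 13 were measured, and 8 of them had a higher knockout mean, against the same 43.4%. Prph, a peripheral neuron filament chosen after its values were seen, reached an unadjusted p under 0.05, at 0.476, 0.249, 0.206 and 0.153 FPKM in knockouts and 0.0810, 0.05002, 0.183 and 0 FPKM in wild type. The neurofilament Nefl did not exceed 0.0323 FPKM in any mouse. Stmn2, a tubulin-binding protein of growing axons picked with its values in view, read 3.74, 3.35, 2.33 and 1.92 FPKM in knockouts and 3.30, 2.74, 2.47 and 3.69 FPKM in wild type, with overlapping groups (adjusted p = 0.83 by limma). Uchl1, which muscle also expresses, read 6.50, 1.66, 3.94 and 1.56 FPKM in knockouts and 2.42, 1.10, 3.57 and 2.26 FPKM in wild type (adjusted p = 0.72 by limma), a difference of 0.31 that was 0.003 without KO5. Perineurial markers, 4 in all, had a higher knockout mean in 4, against 43.4% of all genes. Cldn1 read 4.90, 16.6, 1.80 and 1.83 FPKM in knockouts, against 1.24 to 2.39 FPKM in wild type (adjusted p = 0.49 by limma). Its difference of 1.00 was 0.42 without KO6. Cldn1 is also a skin protein.

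**Figure D4:**
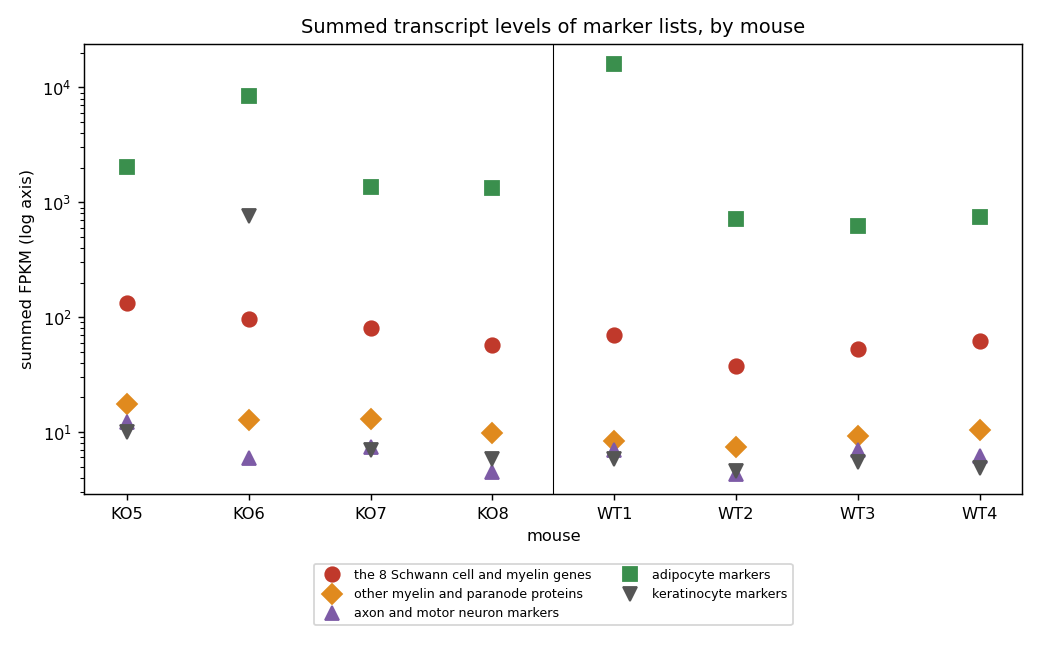
Summed FPKM of 5 marker lists in each mouse on a log axis, knockouts left of the line and wild type right of it. The 8 Schwann cell and myelin genes sum to between 56.9 and 132 FPKM in knockouts and between 37.5 and 70.1 FPKM in wild type, with WT1 the highest wild-type mouse and KO6, at 96.4 FPKM, second to KO5. The adipocyte sum is highest in WT1 and KO6, and the keratinocyte sum stands out in KO6 alone.

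KO5, the highest mouse for most of the myelin genes, also had the highest sum of 8 genes that respond to denervation. Those summed to 52.1, 31.8, 18.6 and 11.4 FPKM in KO5 to KO8, against 24.3, 15.4, 17.1 and 16.4 FPKM in WT1 to WT4. Most of each sum was Gadd45a, at 35.5, 24.3, 13.2 and 8.58 FPKM in KO5 to KO8, against 18.9, 10.6, 9.38 and 11.2 FPKM in WT1 to WT4. With no minimum on FPKM, 7 of these 8 had a higher knockout mean, against 43.4% of all genes, and 0 reached an unadjusted p under 0.05. Gadd45a, which muscle induces after nerve loss, averaged 20.4 ± 12.0 FPKM in knockouts and 12.5 ± 4.33 FPKM in wild type (SD, n = 4 each, adjusted p = 0.60 by limma), a difference of 0.53 that was 0.21 without KO5. KO5 also had the highest sum of skeletal fibre markers, at 108400 FPKM against 71570 to 73750 FPKM in the other knockouts and 71790 to 86260 FPKM in wild type. Mylpf alone read 49690 FPKM in KO5, against 23170 to 26910 FPKM in the other knockouts and 19980 to 26890 FPKM in wild type. Ckm, Actn3 and Des were also highest in KO5, while Myh4, Myh1, Tnnt3, Pvalb and Ttn were not. The part of these differences in the myelin values of KO5 was not tested.

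The genes outside every list whose profile over the 8 mice lay closest to the mean profile of the 6 tested genes were Fam178b, Fcho2, Iqsec2, Phip, Cenpw, Tlr4, Rnf128 and Cdkn1c. Closeness was the root-mean-square difference between centred log2(FPKM + 1) profiles, which was 0.13 for Fam178b, 0.17 for Fcho2 and 0.18 to 0.20 for the other 6, beside a median of 0.55 over all 11118 genes. The profiles of Mal and Pllp lay as near, at 0.11 and 0.15, and those of Cadm4 and Drp2 at 0.28 and 0.42. The 6 tested genes themselves lay farther from their mean profile than the 8 named genes. S100b lay at 0.25, Pmp22 and Ncmap at 0.26, Prx at 0.27, Mbp at 0.29 and Cnp at 0.79. The mean profile was lowest in WT3, at -0.60, where Cnp is listed at 0, so it depends in part on that value. Fam178b read 5.29, 2.91, 3.02 and 1.95 FPKM in KO5 to KO8, against 1.54, 1.02, 0.970 and 1.62 FPKM in WT1 to WT4 (adjusted p = 0.48 by limma). Iqsec2, an exchange factor for ARF proteins, read 14.6, 15.0, 13.1 and 10.8 FPKM in knockouts and 9.29, 7.88, 7.28 and 9.85 FPKM in wild type (adjusted p = 0.48 by limma). Both had knockouts above all wild-type mice, as 2.08% of all genes tested did, while the groups overlapped in the other 6. The 8 were picked for likeness to a profile that is higher in knockouts, so this order follows from the selection. Neither Fam178b nor Iqsec2 passed after adjustment.

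The authors' deposited table carries flags for 2 thresholds of their own p-value. Of the 8 genes, Mbp, Pmp22 and Cnp carried the flag for p under 0.05, as did 20.2% of rows with a mean of at least 1 FPKM. None of the 8 carried the flag for p under 0.001 in the authors' deposited table.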

How the data were processed

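Single-end reads of 50 cycles from 8 unstranded mRNA libraries (TruSeq RNA v2) had been aligned to mm10 by TopHat 2.0.9, per the labels' protocols. From uniquely mapped reads the authors calculated FPKM in Cufflinks, version 2.0.2 per the labels' protocols and 2.2.1 per the submitters' processing notes. Which annotation they used was not given in the sources used here. Deposited were 39009 rows of FPKM and, in other columns, the authors' mean and SE of FPKM and flags of 0 or 1, per the file headers.

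Where a symbol had several rows, the one of highest mean FPKM was kept. Genes averaging at least 1 FPKM were tested with limma-trend 3.58.1 (R 4.3.3) on log2(FPKM + 1), which understates changes of low genes, with Benjamini-Hochberg adjustment at 0.05. Starts are the deposited start plus 1. Exact permutation tests ran over 70 labelled splits. Relative depth was the mode of FPKM ratios to WT2 over rows under 0.3 FPKM in both (kernel SD 0.05). Overlapping genes came from the GENCODE M21 annotation of mm10, and RefSeq promoters were used for 6 of the 8 genes, not Mbp or Sox10. Code was checked on simulated data. Other software was Python 3.11.15, pandas 2.3.3, scipy 1.17.1 and matplotlib 3.10.9.

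The 8 genes and the lists were chosen with earlier results of these data known. Named were the 8, up to 4 genes per list with an unadjusted p under 0.05 or else the one with the smallest p, the 8 closest profiles outside the lists (without Riken, Gm-numbered or accession-like names), Bcat2 and defining markers. Alternatives were other pseudocounts, filters, scalings, weights, summed rows and mice left out. Setting zeros to missing, and leaving out WT1, KO5 and KO6 together, were added after seeing the data. P-values measure only the spread between these mice. Some genes of the myelin list are not reported here.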

Additional observations from a re-analysis of the deposited data

Results flagged for a closer look

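In 6 of the 72 groups of 4 mice checked, 1 mouse lay far from the other 3, and chance alone gives about 1 in 20. None of these was a group of the 8 Schwann cell and myelin genes. KO6 read 13.98 FPKM for Fa2h, against 0.681 to 0.843 FPKM in the other knockouts. KO6 also read 154.8 FPKM for the desmosomal gene Perp, against 1.67 to 4.99 FPKM, and 1928 FPKM for the adipocyte gene Cfd, against 216.9 to 433 FPKM. WT1 read 5069 FPKM for Cfd, against 31.3 to 90.4 FPKM in the other wild-type mice. WT1 also read 6.20 FPKM for the Schwann cell sodium channel Scn7a, against 1.23 to 1.59 FPKM. For Bcat2, WT1 read 83.0 FPKM, against 41.2 to 46.0 FPKM.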

How the results depend on the processing

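All 153 alternative estimates for the 8 genes kept a positive difference, and none passed the threshold (lowest limma adjusted p = 0.351). Of the 6 tested genes, 2 reached an unadjusted p under 0.05 with higher knockout values, against 2.99% of all genes tested. With median-ratio scaling the number was 5, but the share of all genes also rose, to 6.75%. The number was 5 with quantile scaling, 4 with array weights, 0 without WT1 and KO6, and 1 without WT1, KO5 and KO6. It ran from 1 to 4 with 1 mouse left out. Shares of all genes under these other settings are not given here. A minimum mean of 5 FPKM kept 3 of the 6 genes, so 3 had higher knockout means and 1 an unadjusted p under 0.05, and it kept none of the other myelin genes, so 0 had a higher mean, against 5 otherwise. Itga6 turned to -0.059 with array weights. Mitf, at 0.03, turned to -0.056 without WT1 and KO6 and to -0.21 without WT1, KO5 and KO6, and ran from -0.049 to 0.14 with 1 mouse left out. The cause was not tested. Over all genes, 3 passed, and 1 to 17 did under the alternatives. No paired analysis was possible because the labels name no pairs of knockout and wild-type mice. With 4 mice per group and unknown read totals, differences of genes under 1 FPKM, such as Mag and Sox10, are poorly resolved.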

Other observations

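Of all 11118 genes tested, 36.4% had a higher mean in knockouts, and 7.33% reached an unadjusted p under 0.05 with lower knockout values. Of 4 endothelial markers, 0 had a higher knockout mean, and 2, Cdh5 and Kdr, reached that p with lower values. Of 9 adipocyte markers, 7 had a higher knockout mean, and 0 reached an unadjusted p under 0.05 in either direction. The endothelial cadherin Cdh5 read 11.6, 11.6, 13.5 and 8.44 FPKM in knockouts and 20.8, 13.6, 21.8 and 15.7 FPKM in wild type (adjusted p = 0.48 by limma). Kdr, a receptor of vascular growth factor, averaged 4.65 ± 1.36 FPKM in knockouts and 7.63 ± 1.78 FPKM in wild type (SD, n = 4 each, adjusted p = 0.48 by limma). Of 5 fibroblast markers, 1 had a higher knockout mean, and Col1a1 averaged 21.7 ± 12.8 FPKM in knockouts and 59.9 ± 26.7 FPKM in wild type (SD, n = 4 each, adjusted p = 0.48 by limma). Of 5 macrophage markers, 1 had a higher knockout mean, with Emr1 at 1.57 ± 0.263 FPKM in knockouts and 1.93 ± 0.664 FPKM in wild type (SD, n = 4 each, adjusted p = 0.70 by limma).

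Of 9 skeletal fibre markers, 3 had a higher knockout mean, against 36.4% of all genes. Of these 9, Myh4 and Ttn reached an unadjusted p under 0.05 with lower knockout values, against 7.33% of all genes. Ttn, the giant sarcomere spring, read 36.9, 30.2, 48.3 and 21.9 FPKM in knockouts and 38.3, 57.9, 80.4 and 53.2 FPKM in wild type (adjusted p = 0.48 by limma). Myh4, the fastest myosin heavy chain, averaged 2616 FPKM in knockouts and 4044 FPKM in wild type (adjusted p = 0.48 by limma). A note in the authors' deposited table says that Cufflinks raised an error flag for the WT2 value of Myh4 and that they left it out. It was kept here, and the difference was -0.61 with it and -0.55 without WT2.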
